A study of Homo sapiens with 6 samples.

Results

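The regions described here are USP39 binding sites near the starts of protein-coding genes. A site was included when its central base lay in the first 1000 nt of a nuclear protein-coding gene that spans more than 5000 nt and carries at least 3 sites, with each gene read in the direction of the strand that held most of its sites. This gave 1711 start sites of the 34781 sites in the list (4.92%). They lay in 794 of the 2111 genes (37.6%) that met the length and number limits, which together held 26029 sites. The rule used positions and numbers of sites per gene only, and it did not use where within the 1000 nt a site lay.

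RNA bound by USP39 was mapped by iCLIP2 in HEK293T, a human embryonic kidney cell line of wild-type genotype. Cells were irradiated with 254 nm UV light, and an antibody against USP39 was used for the precipitation. Libraries were made from a low and a high membrane region with 3 replicates each, all with the same genotype, irradiation and antibody. The values come from 1 merged list of sites, each 5 nt wide. The list is filed under low replicate 1 and called merged, and which of the 6 libraries it rests on is not given in the sources used here. A control without UV light was not analysed here. The list has a score of 0 for every site and no value for a single library, so read depth is unknown, replicate error cannot be stated, and the membrane regions could not be compared. No test between samples was possible, and the intervals below are 95% Wilson intervals, which cover counting error only. RNA abundance was not measured, so the values are not corrected for how strongly a gene is transcribed.

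USP39 works with the U4/U6.U5 tri-snRNP, which enters the assembling spliceosome and is remodelled when the spliceosome becomes active. It belongs by sequence to the ubiquitin-specific proteases but lacks their catalytic activity, and its yeast counterpart is Sad1. The first bases of a transcript made by RNA polymerase II carry the cap, and the first exon and the beginning of the first intron follow. In iCLIP a contact is placed from the position at which reverse transcription ended, and a cDNA that runs to the end of an RNA also ends there. The list does not separate the 2 kinds of cDNA end. A gene start here is the outermost end of the RefSeq span, which need not be the start used in HEK293T cells, and exons were not given in the table used.

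Site letters could be read for those start sites that lay between 250 nt before and 50 nt after a listed RefSeq start. The first set shows the 6 genes with 3 or 4 sites wholly within their first 50 nt, among those whose letters could be read and are shown. Each line gives 30 bases in the direction of the gene (RefSeq, GRCh38.p14) and marks in capitals the sites that lie wholly within them, some of which abut.
H2BC5, chr6:26158121-26158150, plus strand, bases 1 to 30: GATTATTTTCtcaggtgTTTGCaacagtgt
RPL24, chr3:101686689-101686718, minus strand, bases 1 to 30: cTTTCTtttcgccatctTTTGTCTTTCcgt
RPL31, chr2:101002289-101002318, plus strand, bases 1 to 30: CTTCCTTTCCaACTTGgacgctgcagagtg
RPS4X, chrX:72277207-72277236, minus strand, bases 13 to 42: caccggaagacggaGGTCCtCTTTCCTTGC
ATP5F1E, chr20:59032290-59032319, minus strand, bases 17 to 46: cgcccGGCTGagccgACATTgccggCGTCT
ATP5MJ, chr14:103921483-103921512, minus strand, bases 18 to 47: tgcagATTTGtggtgcGTTCTgagcCGTCT

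In RPL24 and RPL31, which encode proteins of the large ribosomal subunit, sites covered bases 2 to 6 and 1 to 5 of the gene. The sites of RPS4X, a gene of the small ribosomal subunit, and of the ATP synthase genes ATP5F1E and ATP5MJ began farther in. The second set, chosen after the values were seen, shows genes with sites at or near the first base, and H2BC18, whose start sites were centred from base 18 on and which also had a site centred 4 nt before its start.
RPS3, chr11:75399518-75399547, plus strand, bases 1 to 30: cCTTTCCTTTCagcggagcgcggcggcaag
RPL38, chr17:74203678-74203707, plus strand, bases 1 to 30: ctTTTTCgtccTTTTCcccggttgctgctt
RPS9, chr19:54200858-54200887, plus strand, bases 1 to 30: cTCTTTctcagtgaccgggtggTTTGCtta
EEF2, chr19:3985434-3985463, minus strand, bases 1 to 30: cTCTTCcgccgtcgtcgccgccatcctcgg
NCAPD2, chr12:6494102-6494131, plus strand, bases 1 to 30: cCTTTTcATTTCagcctgactgccggaatc
PARK7, chr1:7961711-7961740, plus strand, bases 1 to 30: gCGTTCaTTTTCagcctggtgtggggtgag
SLC25A3, chr12:98593686-98593715, plus strand, bases 1 to 30: cTCTGTgagccgcaaccTTTCCaagggagt
H2BC12, chr6:27146829-27146858, minus strand, bases 1 to 30: CCCATtacttcccGTTTTctcgatctgctg
H2BC18, chr1:149812341-149812370, minus strand, bases 1 to 30: agttcggattacttcTTTAAgtcTCTTTtc

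In RPS3, RPL38, RPS9, EEF2, NCAPD2, PARK7 and SLC25A3 the first start site was centred within bases 1 to 10, and in all of these genes but PARK7, whose span begins with G, the first base was C. RPS3, RPL38 and RPS9 encode ribosomal proteins, and EEF2 the elongation factor that moves the ribosome along the mRNA. NCAPD2 encodes a condensin subunit, PARK7 a protein of the oxidative stress response, and SLC25A3 the mitochondrial phosphate carrier. H2BC5, H2BC12 and H2BC18 encode histone H2B. Ribosomal protein genes have many processed pseudogenes and the H2B genes are near-identical copies of each other, so the number of sites in any 1 copy is uncertain.

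Within the first 1000 nt the sites crowded towards the start. The first 100 nt held 515 start sites (30.1%, interval 28% to 32.3%) in 371 genes. The next 100 nt held 279 (16.3%). Each of the other 8 stretches of 100 nt held between 88 and 136 sites. The median start site was centred on base 249, and 46.4% lay in the first 200 nt. At the far edge, the last 100 nt inside the limit held 108 sites and the 100 nt just beyond it 134.

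The first bases were denser still. Bases 1 to 10 held 102 sites in 96 genes, against 49 sites in bases 11 to 20 and between 45 and 53 in each of the next 3 stretches of 10 nt. Bases 1 to 50 together held 295 sites (17.2% of the start sites, interval 15.5% to 19.1%) in 228 genes, 10.8% of the 2111. Single bases held between 5 and 16 sites over bases 1 to 10, with 16 at base 4 and 14 at base 5. In 22 start sites the central base was base 1 or 2, so that the site itself began before the annotated gene.

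**Figure D1:**
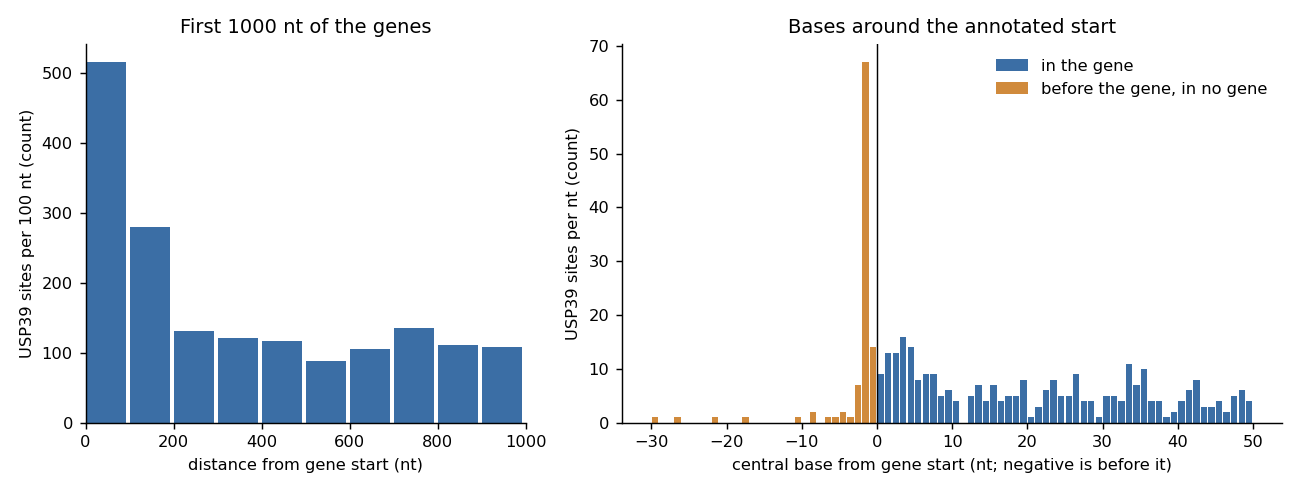
USP39 sites by the distance of their central base from the gene start, in 100-nt stretches of the first 1000 nt (left, counts) and base by base around the start (right, counts). Blue bars are start sites and orange bars are sites just before the gene that lie in no gene. The first 100 nt hold 515 sites, and the base 2 nt before the start holds 67.

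The crowding went on across the annotated start. In the 1000 nt before the 2111 genes, 112 sites on the gene's strand lay in no gene, and 95 of these were centred within 10 nt of the start, in 94 genes. The base 2 nt before the start held 67 of them, and a site centred there ends on base 1 of the gene. Bases 11 to 30 before the start held 5. On the other strand 8 sites in no gene lay in the 1000 nt before the starts, with 0 within 10 nt. These sites are not start sites by the rule, since their central base is outside the gene. Of the 94 genes, 84 also had a start site, against 794 of all 2111 genes (37.6%). This comparison is not corrected for the number of sites per gene. Within 10 nt on either side of the start there were 197 sites in 166 of the 2111 genes (7.86%).

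The same pattern was seen at other starts that RefSeq lists for these genes. Of 1772 genes with a listed start on their strand, 528 had several. At 927 listed starts that were over 100 nt from the span's own start, 33 sites of the gene lay in the 10 nt before and 25 in the 10 nt after. The stretch from 11 to 20 nt before held 3 sites, and that from 11 to 20 nt after held 8. At the base 2 nt before these starts there were 21 sites. Of the sites within 50 nt after any listed start, 307 in all, 34 lay beyond the first 1000 nt of their gene and so were not start sites.

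Per kb, the first 1000 nt carried more sites than the stretches that follow and fewer than the last 1000 nt. It held 0.811 sites per kb of gene, against 0.479 in the second 1000 nt, and between 0.426 and 0.431 in each of the next 3 stretches of 1000 nt. The ratio of the first to the second stretch was 1.69 (1711 against 1011 sites). The last 1000 nt held 3125 sites, or 1.48 per kb. If each gene's sites had been spread evenly over its span, 1267 would have fallen in the first 1000 nt, so the observed number was 1.35 times that, against 0.798 times for the second stretch and 2.47 times for the last 1000 nt.

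Counted by gene, 37.6% of the 2111 genes had a start site (interval 35.6% to 39.7%). A site in the second 1000 nt was present in 20.7% of them and a site in the last 1000 nt in 49.6%. Start and end sites occurred in the same gene in 431 cases, which is 54.3% of the genes with a start site and 41.2% of the genes with an end site. Of the 1317 genes without a start site, 46.8% had an end site. The genes with a start site had more sites (median 10.5 against 6) and shorter spans. These shares are not corrected for either.

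**Figure D2:**
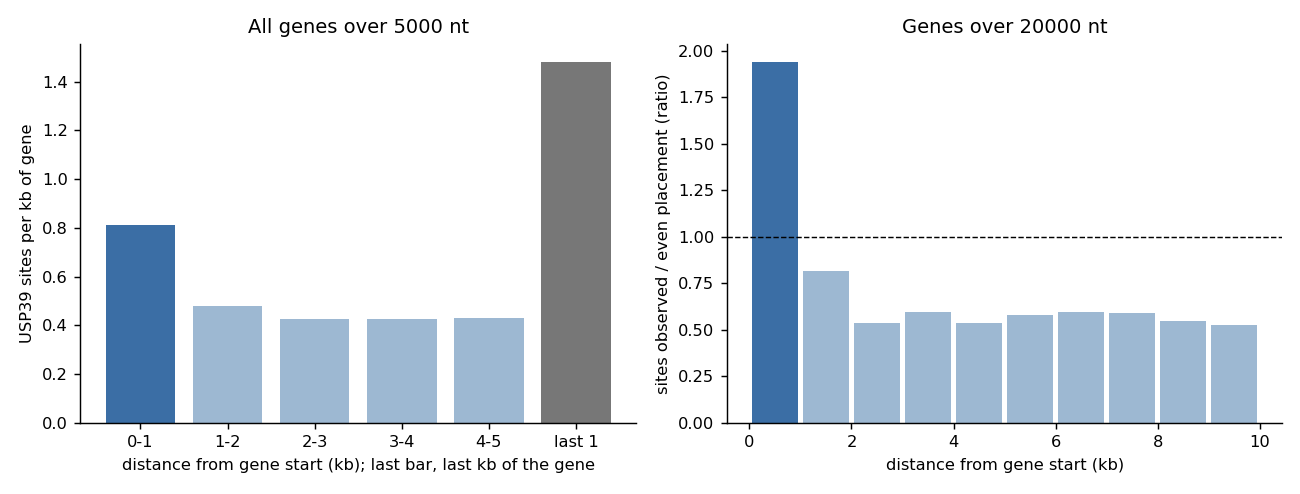
Left, USP39 sites per kb of gene in the first 5 stretches of 1000 nt and in the last 1000 nt of the 2111 genes. Right, observed sites over even placement (ratio, dashed line at 1) in the first 10 stretches of 1000 nt of the 1345 genes over 20000 nt. The first stretch stands at 0.811 per kb on the left and at a ratio of 1.94 on the right.

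The ratio to even placement was higher in genes over 20000 nt than in shorter ones. It was 1.1 in the 293 genes of 5000 to 10000 nt, 1.09 in the 473 genes of 10000 to 20000 nt and 1.73 in the 702 genes of 20000 to 50000 nt. It reached 2.17 in the 378 genes of 50000 to 100000 nt and 4.42 in the 265 longer genes, where 83 start sites were found. The share of genes with a start site went the other way, with 59.7% in the shortest class and 18.1% in the longest. The fraction of start sites in the first 100 nt lay between 28.9% and 36.2% in the 4 classes up to 100000 nt and was 20.5% in the longest genes. In the 1345 genes over 20000 nt, the first 1000 nt held 743 sites and the next 1000 nt held 313, and each of the 8 stretches after these held between 201 and 229. In every length class the last 1000 nt held more sites than the first, with 669 against 522 in the shortest and 183 against 83 in the longest. A rise of the ratio with length was thus not shown to be particular to the start. The first 1000 nt held 1.24 times the sites of the second in the shortest class. This was 3.04 times in genes of 50000 to 100000 nt and 1.77 times in the longest, where the second held 47.

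Genes with more sites more often had one at the start. The share with a start site was 20.9% in genes with 3 to 4 sites, 33.1% with 5 to 9, 49.9% with 10 to 19, 57.4% with 20 to 49 and 72.9% in the 70 genes with 50 or more. The 794 genes with a start site had a median of 10.5 sites and a median span of 20658 nt, against 6 sites and 37142 nt in the genes without. The ratio to even placement was 1.63 in genes with 3 to 4 sites and 1.04 in those with 50 or more.

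Of the 794 genes, 400 had 1 start site, 178 had 2 and 216 had 3 or more. The 10 genes with the most start sites held 6.84% of them. In 40.3% of start sites (interval 38.0% to 42.7%) a neighbour in the same gene lay within 50 nt, against 33.3% of the sites after the first 1000 nt (interval 32.7% to 33.9%), 38.0% of those in the second 1000 nt and 39.8% of those in the last 1000 nt. These intervals take sites as independent, which neighbours in a gene are not. Without the 10 genes with the most start sites, 37.6% of start sites had such a neighbour. Among 916 gaps between neighbouring start sites the median was 71 nt, and 38 gaps were 5 nt, which is the width of a site.

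The main strand opposed the strand of the RefSeq promoter table in 13 of 1785 genes that could be compared, and 6 of these held 23 start sites. The rest of the 2111 genes had no strand there to compare, so further genes read against their annotated strand may remain. In COX20, a chromosome 1 gene for an assembly factor of cytochrome c oxidase, all 15 start sites lay on the minus strand while the table gives the plus strand. They are therefore at the annotated 3′ end of COX20. The nearest coding gene is HNRNPU, on the minus strand, 5234 nt away. Without the 13 genes there were 1688 start sites, and the ratio to the second stretch was 1.70. Another gene's span also held 204 of the start sites (11.9%), against 8.70% of the other 24318 sites of these genes, with 123 in lncRNA genes and 79 in other coding genes. Without sites that also lay in another gene there were 1496 start sites and the ratio was 1.65.

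COX20 and RCC1 had the most start sites, with 15 each. RCC1, which encodes the exchange factor that loads the small GTPase Ran, spans 28506043 to 28538989 on chromosome 1, and all 15 of its start sites lay also within SNHG3, a host gene of small nucleolar RNAs. They were centred between bases 4 and 999. RPL13, a gene of the large ribosomal subunit on chromosome 16, had 13 start sites of 26 sites in all, between 89560678 and 89561645. PABPC1, which encodes the cytoplasmic poly(A)-binding protein, had 13 of 55 on chromosome 8, from base 5 to base 681. RPS20 had 11 of 14, or 78.6% of its sites, and the first was centred on base 4. In HNRNPA1, which encodes a splicing repressor, the 11 start sites were 22.4% of 49, and even placement over its 6362 nt would have given 7.70.

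The long gene SLIT2, whose product is a secreted axon guidance cue, had 11 start sites. They stretched from base 14 to base 956 of a span of 368657 nt on chromosome 4, where even placement would have given 0.288. IRS4, an insulin receptor substrate gene on chromosome X, had 9 start sites of 180, 0.831 times even placement, and the first was centred on base 235. HNRNPA2B1 also had 9 (of 82), 1.19 times even placement. SQLE, which encodes squalene epoxidase of cholesterol synthesis, had 9 of 16, all after base 160. RPL5 had 10 start sites, and RPL38 and RPS7 had 8 each.

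Histone genes led by the share of their sites near the start. All 9 sites of H2BC5 lay in the first 450 nt of its span of 13229 nt on chromosome 6, with 4 of them in the first 50 nt. All 6 sites of H2BC18 (chromosome 1) lay between bases 18 and 255. All 5 of H2BC4 (chromosome 6) lay between bases 19 and 422. In H2BC12, 9 of 12 sites were start sites, centred from base 3 to base 445. These spans are longer than a histone coding region, since the RefSeq entries include longer transcripts. The high shares of the H2B genes depend on these long spans. They do not show that the sites crowd at the start of a shorter H2B transcript. H3-3A, which encodes the replication-independent histone H3.3, had its 3 sites at bases 884, 889 and 894. NDUFA12, a gene of respiratory complex I, had its 3 sites at bases 2, 95 and 954. SEM1, a gene of the proteasome lid, ties with these at 3 of 3 sites.

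**Figure D3:**
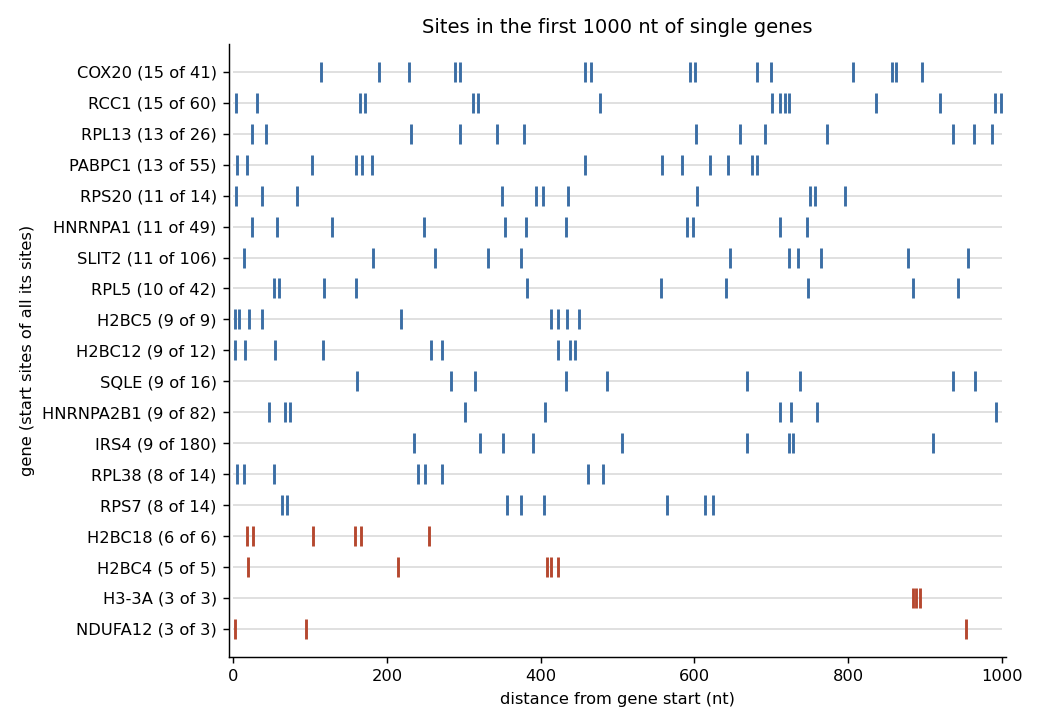
Central bases of the start sites (ticks) by distance from the gene start in nt. Blue ticks show the 15 genes with the most start sites, and red ticks the genes added because start sites are the largest share of their sites. The H2B genes have no site after base 450 in this window, while COX20, whose annotated strand is the opposite one, has its first site at base 114.

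The start sites whose letters could be read were rich in pyrimidines. With 10 nt on each side inside the listed sequence, 280 of the 1711 start sites, in 219 genes, could be read. These lie near a listed start, and the letters of the other start sites are unknown. The central base was U in 67.5% of the 280 (written T in the table) and A in 1.79%. Over the 5 nt of the sites, U made up 49.4% and C 25.1%. In the 8 nt on each side U made up 24.9%. In the first 50 nt of the same genes, for which 205 sequences could be read, U made up 22.8%. Some of the 280 sites were centred beyond base 50. The commonest site letters were CTTTC, in 17 sites, and TTTTC, in 14. Sites centred on bases 1 to 10 had 80.7% pyrimidines over their 5 nt, and sites centred on bases 11 to 50 had 72.8%. In all listed genes that met the limits, the pyrimidine content was 50.3% over bases 1 to 10 and 47.4% over bases 11 to 50. Crosslinking by UV light at this wavelength is known to favour U, and its part in these values was not tested.

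Transcripts of ribosomal proteins and of many translation factors are known to begin with a C followed by a run of pyrimidines, the 5′ terminal oligopyrimidine (TOP) motif, through which their translation responds to growth signals. A span beginning with C and at least 4 more pyrimidines was found in 139 of the 1590 genes whose span start is listed. Of these 139 genes, 36 had a site centred on bases 1 to 10 (25.9%, interval 19.3% to 33.8%), against 41 of the 1451 others (2.83%, interval 2.09% to 3.81%). Over bases 1 to 50 the shares were 36.0% and 9.10%, and over the first 1000 nt 64.0% and 37.4%. Put the other way, the pyrimidine start was present in 46.8% of 77 genes with a site in bases 1 to 10, against 8.67% of 450 genes with start sites only after base 50, and 5.22% of 958 genes without a start site. Among all 13819 promoters at the span start of a protein-coding gene in the table it was present in 4.57%, and among all 24882 promoters, noncoding genes included, in 4.0%. Genes with a site in the 10 nt before the start had it in 28 of 75 cases (37.3%).

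Ribosomal protein genes were 21 of the 139. Without them, 18.6% of 118 genes with the pyrimidine start had a site in bases 1 to 10, against 2.84% of 1443 other genes. Genes with this start carried more sites in all, with a median of 11 against 7. In genes with 3 to 9 sites the shares with a site in bases 1 to 10 were 12.9% of 62 and 1.51% of 926, and in genes with 10 or more sites 36.4% of 77 and 5.14% of 525. The pyrimidine start was examined after the leading genes were seen. The bases that define it lie within bases 1 to 10, and the sites themselves were rich in pyrimidines. The part of this in the differences was not tested. C at base 1, with or without the run, was present in 55.8% of the 77 genes with a site in bases 1 to 10. It was present in 11.4% of the 958 genes without a start site.

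**Figure D4:**
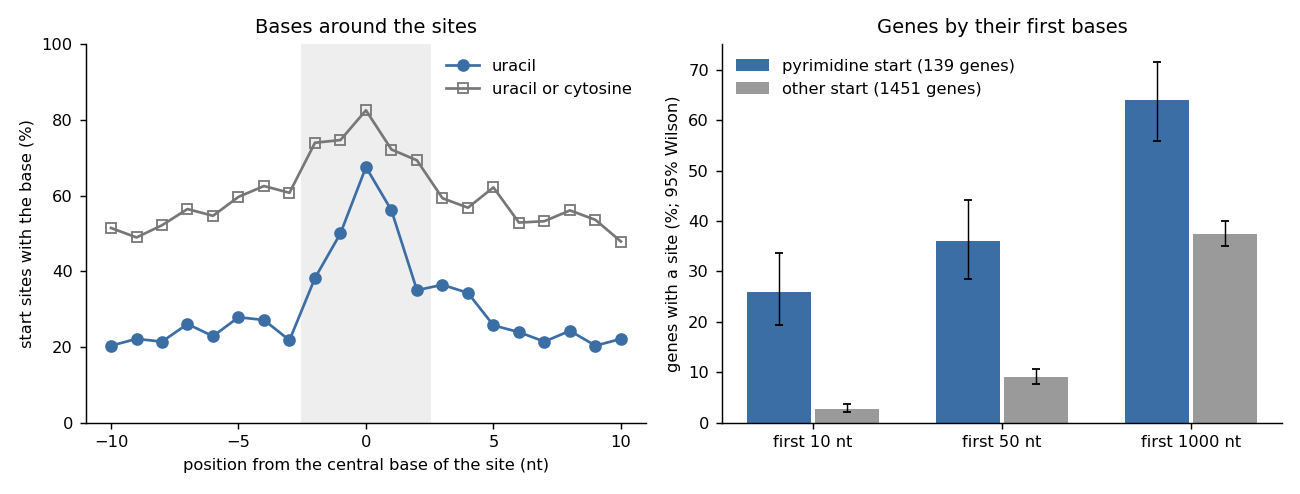
Left, share of 280 start sites with uracil, or with either pyrimidine, at each position from the central base; grey marks the 5 nt of the site, where uracil peaks at 67.5%. Right, share of genes with a site in the first 10, 50 or 1000 nt, for 139 genes whose span begins with C and 4 pyrimidines and for 1451 other genes, with 95% Wilson intervals; the first pair is 25.9% and 2.83%.

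Other letters of the promoters were searched on both strands over the 300 bases from 250 before to 50 after the start. TATAAA, the core of the TATA box, was present in 15.6% of the 77 genes with a site in bases 1 to 10 (interval 9.15% to 25.3%) and in 7.44% of all 632 listed genes with a start site. It was present in 3.76% of the 958 genes without one (interval 2.73% to 5.16%) and in 10% of all 13819 listed protein-coding promoters. CCAAT, bound by NF-Y, was present in 50.6%, 47.6%, 36.6% and 37.2% of these sets, and GGGCGG, bound by Sp1, in 67.5%, 73.3%, 75.8% and 58.5%. For CCGGAAG, a motif of ETS factors, the 4 shares were 28.6%, 22.6%, 20.9% and 14.6%. TGACGTCA, bound by CREB, was present in 6.49%, 4.11%, 5.01% and 2.7%. The YY1 motif, searched as 1 fixed string like the others, was present in 7.79%, 3.48%, 3.86% and 1.44%, and the NRF1 motif in 2.60%, 2.85%, 3.86% and 1.84%. With noncoding genes included, the 24882 promoters held TATAAA in 12.2%, CCAAT in 36.1%, GGGCGG in 43.9% and CCGGAAG in 10.7%. None of these motifs contains another, and a match is not shown to be a bound site.

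Letters like a 5′ splice site were searched on the gene's strand in bases 1 to 50. GGTAAG was present in 7 of the 77 genes with a site in bases 1 to 10 (9.09%, interval 4.47% to 17.6%), in 2 of the 450 with start sites only after base 50 (0.444%), in 6 of the 958 without a start site (0.626%) and in 1.12% of the 13819 protein-coding promoters. GGTGAG was present in 10.4%, 4.67%, 4.07% and 3.20%. Whether these letters are used as splice sites cannot be told from the table.

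By role, the share of genes with a start site was highest for the ribosome. Against 37.6% of all 2111 genes, 33 of 37 ribosomal protein genes had one (89.2%, interval 75.3% to 95.7%). Against 10.8% of all genes, 23 of the 37 (62.2%) had a site in the first 50 nt. Another 39 ribosomal protein genes span at most 5000 nt and could not enter. RPL13, RPS20 and RPL5 led, followed by RPL24 with 8 start sites of 23. Translation factor genes had a start site in 22 of 29 (75.9%, interval 57.9% to 87.8%) and a site in the first 50 nt in 15. EEF1A1, which delivers aminoacyl-tRNA to the ribosome, had 8 of 29 sites near its start, the first at base 2. EEF2 had its 4 at bases 4, 42, 50 and 64, and EIF2S3, a subunit of the initiation factor that carries the initiator tRNA, had 4 of 46. These lists also had more sites per gene, with medians of 15 and 22 against 7 in all 2111 genes. Their median spans were 7098 and 18312 nt, against 30080 nt. Of all genes of 5000 to 10000 nt, 59.7% had a start site, and of those of 10000 to 20000 nt, 44.6%. By number of sites, the share was 49.9% with 10 to 19 sites and 57.4% with 20 to 49. Genes alike in both number of sites and span were not compared. The part of these features in the high shares of both lists was not tested.

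The chaperone genes had a start site in 16 of 20 (80.0%, interval 58.4% to 91.9%) but a site in the first 50 nt in 3. TCP1, CCT3, CCT6A and CCT4, subunits of the cytosolic chaperonin that folds actin and tubulin, led with 8, 7, 5 and 4 start sites. Of the glycolysis genes 6 of 8 had one, with 5 in ENO1 and 3 in PGK1, whose first was centred on base 6. Genes of protein folding in the endoplasmic reticulum had one in 7 of 15, with 8 of 25 sites in CALR, a lectin chaperone, and 4 in HSPA5, the main chaperone there. Proteasome genes had one in 8 of 16, led by PSMB2 with 4. The chaperone, glycolysis and endoplasmic reticulum lists had medians of 20.5, 27 and 15 sites per gene, against 7 in all 2111 genes. Their median spans were 18985, 20094 and 17517 nt, against 30080 nt. The proteasome list had a median of 5.5 sites. Of all genes with 20 to 49 sites, 57.4% had a start site.

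Among splicing genes the shares ranged from 25.0% to 66.7%, with overlapping intervals. Genes of U1, U2 and Sm proteins had a start site in 14 of 21 (66.7%, interval 45.4% to 82.8%), with 3 each in LUC7L, SNRPE and SNRPG. The hnRNP genes had one in 15 of 25 (60.0%, interval 40.7% to 76.6%). Beside HNRNPA1 and HNRNPA2B1, HNRNPU had 6 of 91. The SR list had one in 7 of 13, with 7 in SRSF6, 5 in TRA2A and 4 in SRSF1, all of which had a site within the first 7 bases. The hnRNP and SR lists had medians of 37 and 26 sites per gene, against 7 in all 2111 genes. Of all genes with 20 to 49 sites, 57.4% had a start site, which is near the shares of these 2 lists. The tri-snRNP and LSm list, to which USP39 itself belongs, had one in 3 of 12 (25.0%, interval 8.89% to 53.2%). LSM3 had 2, PRPF8, which lies at the catalytic core, had 2 of 81, and PRPF6 had 1. The helicase list had one in 9 of 23 (39.1%), with 7 of 163 in DDX17, 5 of 54 in DDX5 and 5 of 69 in DDX39B.

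The shares were lower than that of all 2111 genes in 2 further lists, with intervals that include it. Chromatin regulator genes had a start site in 6 of 23 (26.1%, interval 12.5% to 46.5%), and HELLS, a chromatin remodeller, had 2 of 157. Ubiquitin-specific protease genes had one in 2 of 11 (18.2%, interval 5.14% to 47.7%), with 5 in USP9X and 4 in USP1. Genes of mitosis (6 of 11), of DNA replication (8 of 18), of the nucleolus and snoRNPs (6 of 12) and of transcription elongation (6 of 10) had shares between 44.4% and 60.0%. Of the 20 genes restricted to other tissues 2 had a site and 0 met the limits.

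**Figure D5:**
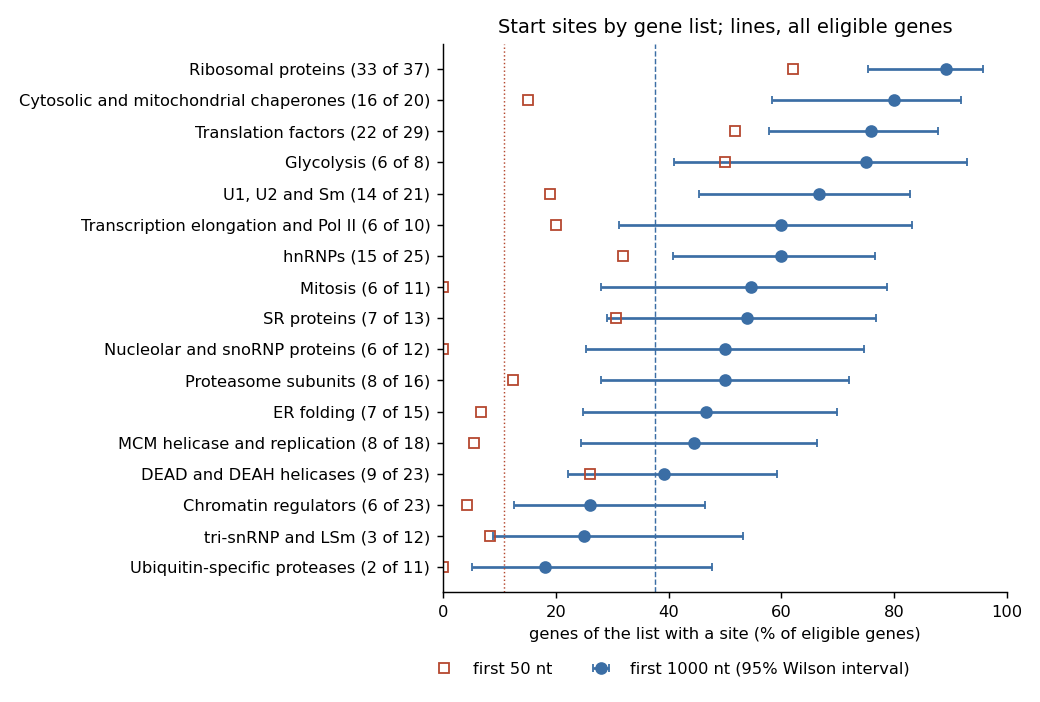
Share of the genes of each list with a site in the first 1000 nt (circles, 95% Wilson intervals) and in the first 50 nt (squares), in percent of the list's genes that met the limits; numbers beside the names are genes with a start site of genes that met the limits. Dashed and dotted lines mark all 2111 genes, at 37.6% and 10.8%; ribosomal protein genes stand at 89.2% and 62.2%.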

How the data were processed

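The authors deposited 1 merged BED list of binding sites, whose score column is 0 throughout. UMI-tools 1.1.2, STAR 2.7.3a, FastQC 0.11.9, bedtools 2.29.2 and SAMtools 1.10 appear, with GRCh38.p12, per the submitters' processing notes. Which site caller was used and which libraries were merged is not given in the sources used here. Coordinates count the first base as 1.

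Sites were given to 59716 RefSeq genes (GRCh38.p14) by their central base, in the order snRNA, snoRNA, other small RNA, protein coding, lncRNA, pseudogene and other; read-through and LOC loci gave way to other genes. Ties went to the gene with at least 3 sites of its own mostly on that strand; 425 sites stayed without a gene. In the first 1000 nt of the genes, 25 sites in small RNA genes were thus not counted. Strand and letters came from the RefSeq promoter table. All 543 list symbols matched.

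The regions, lists and named genes were chosen with earlier results of these data known. Named genes are the 15 with the most start sites, the 5 (of those with 3 or more) with the largest share (6 genes tie at 100%, and SEM1 came after the others by symbol), and up to 4 leaders of each list; others were named after their values were seen. Site assignment and positions were tested on simulated sites in genes that overlap no other gene. The order of gene classes and the rule for ties were thus not tested. The computation used pandas 2.3.3, numpy 2.4.6 and scipy 1.17.1 in Python 3.11.15, with figures by matplotlib 3.10.9. One named gene is not reported here.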

Additional observations from a re-analysis of the deposited data

Results flagged for a closer look

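Sites outside every gene were found just before the gene starts. On the gene's strand 112 sites in no gene lay in the 1000 nt before a start, of 689 sites in no gene in the whole list, and 95 of the 112 were within 10 nt of it. On the other strand there were 8. Both numbers are above the 3 counts that a count of 0 allows. A count of 0 was not the expected number here, so this is no test against chance. Among the genes with such sites on their strand, U2AF2 had 3, between 693 and 842 nt before its start, and RPL14 and USP9X had 2 each, at 2 and 9 nt.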

How the results depend on the processing

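Of 84 recomputed values of 7 measures under 12 alternatives, 54 stayed within the interval of the reported value or within 1.5 times a count. With the first 500 nt as the limit, 31.5% of genes had a start site, start sites were 4.47% of sites and 1.84 times even placement, the ratio to the following stretch was 2.12 and 44.3% lay in the first 100 nt. With the first 2000 nt there were 2722 start sites, with 45.6%, 10.5%, 1.07, 1.51 and 18.9% for the same measures. In genes over 10000 nt the share of genes was 34.0%, the share of sites 5.25%, the 2 ratios 1.5 and 2.01, and the share with a neighbour within 50 nt 35.1%. With at least 5 sites per gene, 44.7% of genes had a start site and 42.8% of start sites a neighbour; with at least 1 site these were 25.9% and 36.0%. In the 854 genes that overlap no other there were 751 start sites, in 43.0% of genes, 7.56% of sites, with 32.9% in the first 100 nt. Without sites that also lie in another gene, 35.5% of genes had one. With sites within 50 nt joined, 6.19% of sites were start sites and 0% had a neighbour, by construction. Without the 10 genes with the most start sites these were 6.22% and 37.6%, and 1.29 times even placement. Both ratios stayed above 1 under all 12 alternatives. Using the annotated strand, or leaving out the genes read against it, moved none of the 7 measures, and neither did giving coding genes precedence. Leaving out sites in another gene and leaving out genes read against their annotated strand were chosen after seeing the data. The cause of the other shifts was not tested. No paired analysis was possible because the list holds no value for a single library, and for the same reason no replicate could be left out. Depth and RNA abundance, which limit where a site can be found, are unknown.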
